A study of Mus musculus with 6 samples.

Results

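The 39 interferon-stimulated genes described here are genes that type I or type II interferon is known to induce, matched by gene name in a table of 55421 genes. All 39 were in the table, and 37 of them passed a minimum mean of 10 normalized reads over the 6 libraries. RNA came from germinal centre B cells, the dividing B cells of the spleen follicle whose antibody genes are mutated and tested for antigen binding. All mice were C57BL/6 and carried an AID-GFP reporter, in which green fluorescent protein marks cells that use the gene of the antibody-mutating enzyme AID. They received the hapten NP on ovalbumin at a ratio of 18 with alum, spleens were taken on day 9, and total RNA was sequenced from sorted GFP+ cells. The wildtype group held 3 libraries and the SFR KO group 3, from mice with a deletion that starts in intron 1 of Cd244, ends in exon 8 of Slamf6 and takes out a cluster of SLAM family receptor genes. Whether each library came from its own mouse is not stated in the labels, so the p-values reflect only how far these libraries differ from each other.

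Type I interferons signal through the receptor pair Ifnar1 and Ifnar2 to a complex that includes Stat2 and Irf9 and binds a DNA element called the ISRE. Type II interferon, the product of Ifng, signals through Ifngr1 and Ifngr2 to genes that carry another element, called GAS. The induced genes sense foreign nucleic acid, block viral replication, tag proteins with the ubiquitin-like protein Isg15, or attack the vacuoles of intracellular pathogens. Lymphocytes express many of them at a low tonic level without infection.

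Libraries held 28269310 to 33053024 reads. The 7 deleted receptor genes summed to 10457 to 20669 normalized reads in wildtype libraries and to 5.47 to 16.8 in SFR KO libraries, which fits the labels. All 11 markers listed for germinal centre B cells were detected. They summed to 352709 to 360975 normalized reads in wildtype and 361559 to 371088 in SFR KO libraries. Wildtype 1 and SFR KO 1 stood apart from the rest. The 10 macrophage and monocyte markers summed to 3504 and 3619 normalized reads in these libraries and to 1379 to 1794 in the other 4. The 8 neutrophil markers summed to 4748 and 1476 against 279 to 844 in the others. The 5 red cell markers summed to 7686 and 4184 against 1418 to 2926 in the others. The 5 dendritic cell markers summed to 1889 to 2268 in wildtype and 1493 to 2021 in SFR KO libraries. For the 6 NK cell markers these sums were 122 to 215 and 104 to 144. For the 7 plasmacytoid dendritic cell markers they were 12853 to 13915 and 12882 to 14277. The 8 T cell markers summed to 366 to 775 in wildtype and 734 to 897 in SFR KO libraries, and 3 of them (Cd3d, Cd3e and Trac) were higher in SFR KO without overlap, as were 9.78% of all tested genes. Cd8a and Cd8b1 on the same list were at log2 differences of -0.43 and -0.73. The 6 plasma cell markers summed to 29586 to 30242 in wildtype and 32630.4 to 33227 in SFR KO libraries, most of it from Jchain, while Sdc1 was lower in SFR KO. The 12 mitochondrial genes summed to 463529 to 660907 normalized reads in wildtype and 757348 to 761282 in SFR KO libraries. No gene on these lists was at 0 in every library. In bulk RNA, fewer cells of a type and less RNA per cell cannot be told apart.

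Promoters of 29 of the 39 genes were in the RefSeq table for build GRCm38.p6, each a window from 250 bases before to 50 after a gene start. The ISRE core GAAANNGAA, searched on both strands, was in a window of 20 of the 29 genes (69.0%), against 9.76% of 27025 genes in the whole table. The GAS letters TTCNNNGAA, which read alike on both strands, were in 9 of the 29 (31.0%), against 9.55% of all genes. Both were present in 6 genes and neither in 6, and 12 genes held at least 2 ISRE cores. Overlapping cores were counted separately, and in 8 windows ISRE cores overlapped one another. No share over all genes was taken for these counts. Of single windows, 57.1% of the 35 of these genes held the ISRE core against 8.56% of 32851 in all, and 25.7% held the GAS letters against 8.30%. A match describes letters in the window, and binding was not measured. The windows below were picked to show the different layouts, 5 in all, with matches in capitals and each read 5′ to 3′ on the strand of its gene.
Igtp, chr11:58199306-58199605, plus strand, with a GAS match that begins 45 bases before the start and an ISRE core that begins 34 before it: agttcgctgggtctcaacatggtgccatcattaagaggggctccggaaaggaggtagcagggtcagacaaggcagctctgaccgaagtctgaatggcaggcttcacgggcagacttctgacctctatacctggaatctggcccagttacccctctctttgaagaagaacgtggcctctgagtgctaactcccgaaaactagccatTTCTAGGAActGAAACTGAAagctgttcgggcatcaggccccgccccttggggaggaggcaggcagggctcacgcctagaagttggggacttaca
Isg15, chr4:156200769-156201068, minus strand, with 3 overlapping ISRE cores that begin 78, 72 and 66 bases before the start: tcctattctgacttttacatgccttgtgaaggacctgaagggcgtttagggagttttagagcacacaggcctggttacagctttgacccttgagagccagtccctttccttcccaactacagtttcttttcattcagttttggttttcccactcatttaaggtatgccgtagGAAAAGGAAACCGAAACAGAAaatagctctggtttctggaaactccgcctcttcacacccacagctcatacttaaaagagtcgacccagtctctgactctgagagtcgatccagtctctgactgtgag
Ifit3, chr19:34583279-34583578, plus strand, with 3 separate ISRE cores that begin 155, 121 and 102 bases before the start: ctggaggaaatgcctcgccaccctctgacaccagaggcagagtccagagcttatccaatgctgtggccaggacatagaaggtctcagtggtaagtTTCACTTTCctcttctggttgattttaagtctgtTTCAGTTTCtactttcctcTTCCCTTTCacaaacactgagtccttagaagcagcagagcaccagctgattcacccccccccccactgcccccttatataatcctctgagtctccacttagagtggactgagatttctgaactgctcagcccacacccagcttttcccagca
Trim25, chr11:88999153-88999452, plus strand, with 1 ISRE core that begins 9 bases before the start: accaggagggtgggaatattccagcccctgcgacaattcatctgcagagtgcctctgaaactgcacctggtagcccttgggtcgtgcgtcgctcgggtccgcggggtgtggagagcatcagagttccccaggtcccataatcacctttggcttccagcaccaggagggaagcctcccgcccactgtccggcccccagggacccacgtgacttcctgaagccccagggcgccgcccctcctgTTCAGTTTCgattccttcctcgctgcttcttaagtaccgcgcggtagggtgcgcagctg
Samhd1, chr2:157135047-157135346, minus strand, with no ISRE core and a GAS match that begins 235 bases before the start: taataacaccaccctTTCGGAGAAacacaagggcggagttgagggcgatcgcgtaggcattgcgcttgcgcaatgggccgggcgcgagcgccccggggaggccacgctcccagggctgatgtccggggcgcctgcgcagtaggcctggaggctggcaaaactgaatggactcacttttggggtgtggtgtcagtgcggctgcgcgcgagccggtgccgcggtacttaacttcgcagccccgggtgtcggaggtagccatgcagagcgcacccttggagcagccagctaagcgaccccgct

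Of the 37 tested interferon-stimulated genes, none was called in SFR KO against wildtype by limma at an adjusted p under 0.05, against 0.465% of all 13562 tested genes. Log2 differences ran from -0.41 for Rtp4 to 1.44 for Iigp1, with a median of 0.06 beside -0.00 over all tested genes. They were above 0 for 23 genes and below 0 for 14, and 21 lay within 0.15 of 0 on the log2 scale. Here and below a difference is SFR KO minus wildtype on the scale of log2(normalized read count + 1). The 95% interval lay inside a 1.5-fold change either way for 22 genes, and for 20 of these it included 0.

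The count by edgeR was also 0, against 0.221% of all tested genes. At an unadjusted limma p under 0.05, 6 interferon-stimulated genes were higher and 1 was lower, where 7.04% and 9.07% of all tested genes were. The libraries of the 2 groups did not overlap for the same number, 6 higher and 1 lower, against 9.78% and 11.9% of all tested genes. DESeq2 on the recovered reads called Ifi27, Igtp and Zbp1 as higher and Trim25 as lower, of 30 members with an adjusted p. Its background was 1.85% higher and 2.99% lower. The authors' deposited table likewise has 3 members higher and 1 lower at an adjusted p under 0.05, of 31 with a value, where 1.79% and 3.01% of all genes in it pass. Without SFR KO 1, limma called Ifi27, Igtp and Zbp1 as higher and none as lower, against 1.62% and 2.08% of 13542 genes tested. Leaving out any other library gave 0 calls among the members.

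**Figure D1:**
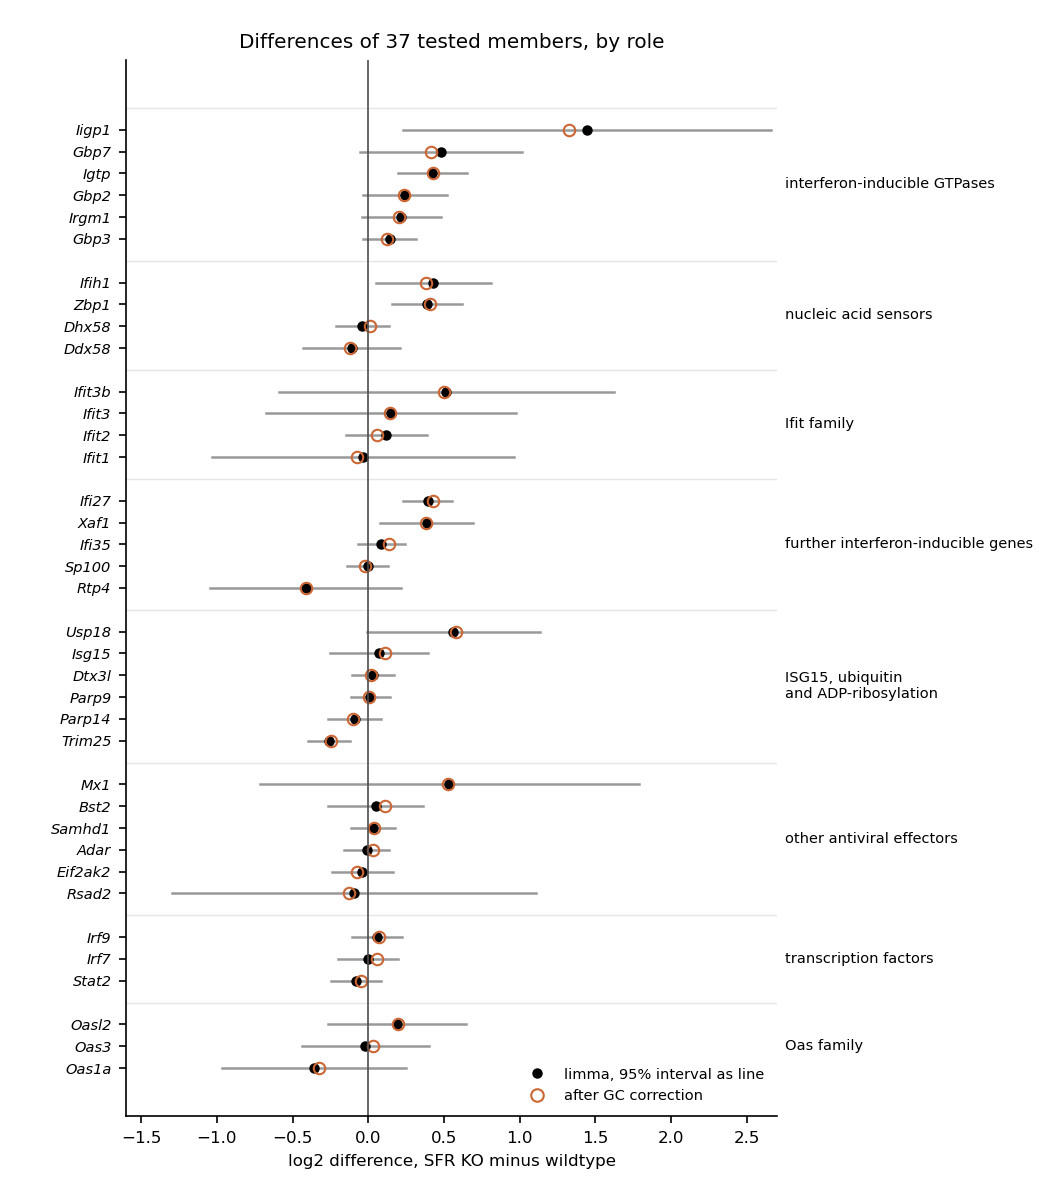
Log2 difference of SFR KO minus wildtype (x axis) for the 37 tested interferon-stimulated genes, grouped by role (y axis); black points are limma estimates from 3 libraries a group, lines are 95% intervals and open circles are estimates after GC correction. All 6 interferon-inducible GTPases lie above 0, and intervals are widest for Iigp1, Mx1 and Rsad2.

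Levels between genes were compared per kilobase of exon. They spanned from 3103 normalized reads per kb for Samhd1, an enzyme that breaks down the nucleotides viruses need, to 0.684 for Ifi44. Next to Samhd1 came Sp100, a nuclear body protein, at 1267, Trim25 at 840.4 and Ifi27 at 743. Genes with low levels included the GTPase gene Mx1 at 4.48 reads per kb, Ifit3b at 6.05, Ifit1 at 11.3, Rsad2 at 28.7 and Ifit3 at 29.0. Oas2 (1.73 reads per kb) and Ifi44 were the 2 genes too low to test. Oas2 reached 13.0, 8.21 and 7.11 normalized reads in the 3 wildtype libraries and 7.88, 4.38 and 5.62 in the 3 SFR KO libraries. Some neighbours in this order did not differ beyond their spread, such as Igtp at 379 and Irf9 at 378 reads per kb.

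**Figure D2:**
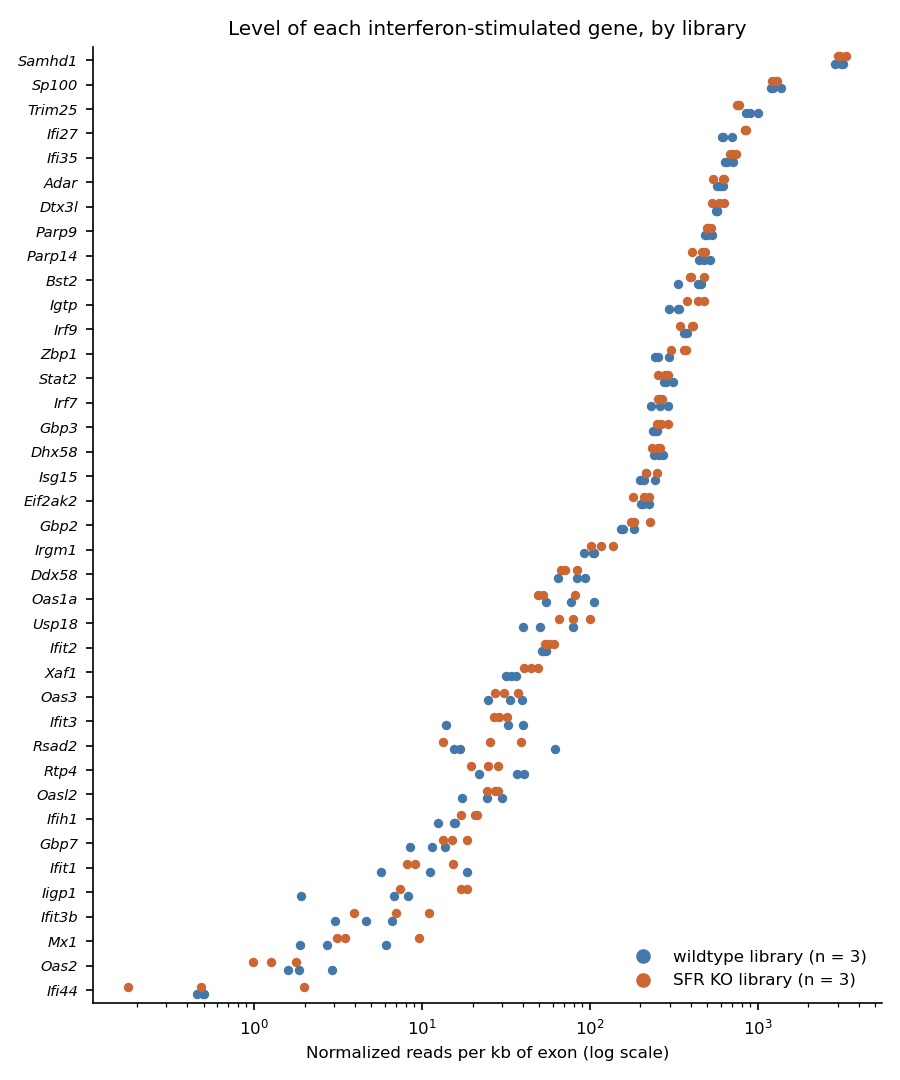
Normalized reads per kb of exon (x axis, log scale) of the 39 interferon-stimulated genes (y axis, ordered by mean), with 1 point per library in blue for the 3 wildtype and orange for the 3 SFR KO libraries. Samhd1 stands highest at 3103 and Ifi44 lowest at 0.684, and points of the 2 groups overlap for most genes.

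The transcription factors that carry the type I signal and amplify it overlapped between groups. None had an unadjusted limma p under 0.05 or was called by limma, edgeR or DESeq2. Of all tested genes, 9.78% were higher and 11.9% lower without overlap. At an unadjusted limma p under 0.05, 7.04% were higher and 9.07% lower. Irf9, the DNA-binding member of the ISRE complex, gave 1949, 1996 and 2033 normalized reads across the wildtype libraries and 1851, 2205 and 2185 across the SFR KO libraries. SFR KO 1 was lowest of all 6 and the other 2 SFR KO libraries were highest, at a difference of 0.06 ± 0.07 (SE, limma adjusted p = 0.759). Stat2, its signalling partner, had 1638, 1864 and 1672 in wildtype and 1515, 1729 and 1652 in SFR KO libraries. The groups overlapped, and the difference was -0.08 ± 0.07 (limma adjusted p = 0.653). Irf7, which drives type I interferon genes and is itself induced, differed by -0.00 with a 95% interval of -0.20 to 0.20. Irf9 shares sequence with Rnf31 on its strand and Irf7 with Phrf1 on the other, so their counts are uncertain where reads could fall in both.

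Among the 4 nucleic acid sensors, 2 were higher in SFR KO libraries without overlap, as were 9.78% of all tested genes, and 2 overlapped. Zbp1 (chr2:173206612-173218923), which senses left-handed nucleic acid and can trigger cell death, reached 859, 892 and 1050.2 normalized reads in the 3 wildtype libraries and 1074, 1318 and 1274 in the 3 SFR KO libraries. Every SFR KO library was above every wildtype library, though SFR KO 1 and wildtype 3 nearly touched. Means were 934 ± 102 and 1222 ± 130.0 (SD, n = 3 each), a ratio of 1.31 and a log2 difference of 0.39 ± 0.10 (SE). The adjusted p was 0.126 by limma and 0.126 by edgeR, and 0.0158 by DESeq2. Without SFR KO 1 the difference was 0.48 (limma adjusted p = 0.0260), and with any other library left out the limma adjusted p was 0.143 to 0.360. Ifih1, the long double-stranded RNA sensor, had 127, 129 and 102 reads in wildtype and 139, 174 and 169.5 in SFR KO libraries, with no overlap (0.43 ± 0.17, limma adjusted p = 0.256). For the related sensors Ddx58 (RIG-I) and Dhx58 (LGP2) the groups overlapped, at differences of -0.11 ± 0.14 and -0.04 ± 0.08.

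The 4 Ifit genes, which bind viral RNA and stop its translation, overlapped between groups. None had an unadjusted limma p under 0.05 or was called by limma or edgeR. DESeq2 gave an adjusted p to only 1 of them, Ifit2, which it did not call. Of all tested genes, 9.78% were higher and 11.9% lower without overlap. At an unadjusted limma p under 0.05, 7.04% were higher and 9.07% lower. Ifit2, the member with the most reads, gave 205, 204 and 214 normalized reads across the wildtype libraries and 225, 241 and 214 across the SFR KO libraries (0.12 ± 0.12, limma adjusted p = 0.670). Ifit3 had 69.7, 56.4 and 24.4 in wildtype and 56.2, 50.4 and 46.8 in SFR KO libraries. Its low value in wildtype 3 decided its direction: the difference was 0.15 ± 0.37, and -0.29 without that library. Ifit1 was also lowest in wildtype 3, with 49.2, 29.7 and 15.2 reads in wildtype and 40.4, 24.1 and 21.5 in SFR KO libraries. Ifit3 and Ifit3b are close copies on chromosome 19 whose reads may be split between them, so their single values are uncertain. Those of Ifit1, on the same chromosome, are uncertain because its reads are few. The Ifit3 window printed above, with 3 ISRE cores, thus belongs to a gene whose groups did not separate.

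The Oas family makes short RNA chains that switch on RNA decay, and its 3 tested members overlapped between groups. Of all tested genes, 9.78% were higher and 11.9% lower without overlap. Oas3 reached 235, 277 and 176 normalized reads in the 3 wildtype libraries and 262, 193 and 217 in the 3 SFR KO libraries, at -0.02 ± 0.19, which turned to 0.03 after GC correction. Oas1a had 146, 199 and 104 in wildtype and 154, 99.6 and 92.7 in SFR KO libraries (-0.36 ± 0.27, limma adjusted p = 0.566). Leaving out 1 library moved this value between -0.13, without wildtype 2, and -0.60, without wildtype 3. In both genes wildtype 2 was the highest wildtype library and wildtype 3 the lowest. Oasl2, a relative with added ubiquitin-like domains, differed by 0.19 ± 0.20.

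The other antiviral effectors included the most abundant gene of the set and some of those that varied most between libraries. Samhd1 gave 28543, 29469 and 26179 normalized reads across the wildtype libraries and 30697, 28118 and 27333 across the SFR KO libraries, a difference of 0.03 ± 0.06 with a 95% interval of -0.11 to 0.18. Adar, the RNA editing enzyme, and Eif2ak2, the kinase that halts translation, differed by -0.01 ± 0.07 and -0.04 ± 0.09. Bst2, which tethers virus particles to the cell surface, differed by 0.05 ± 0.14. Rsad2 (viperin), which makes a chain-ending nucleotide, had 269, 72.8 and 67.0 in wildtype and 168, 58.0 and 111 in SFR KO libraries. Its highest libraries were wildtype 1 and SFR KO 1, the same 2 in which macrophage and neutrophil markers were highest. The part of other cells in its level was not tested. The difference was -0.09 ± 0.53, and 0.55 without wildtype 1. Mx1 was highest in SFR KO 2, with 36.1 reads against 7.11 to 23.2 in the others (0.53 ± 0.56).

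Of the 6 genes that act through Isg15, ubiquitin or ADP-ribose, Trim25 was lower in SFR KO libraries and the other 5 overlapped between groups. Trim25 (chr11:88999376-89020293) is a ubiquitin ligase that helps activate the RNA sensor made by Ddx58. It reached 5770.4, 5134 and 4920.1 normalized reads in the 3 wildtype libraries and 4445, 4339 and 4406 in the 3 SFR KO libraries. All SFR KO libraries were below all wildtype libraries and lay close together. Means were 5275 ± 442 and 4396 ± 53.7 (SD, n = 3 each), a ratio of 0.833 and a log2 difference of -0.26 ± 0.06. The adjusted p was 0.104 by limma, 0.114 by edgeR and 0.00979 by DESeq2, and by limma 0.0633 without SFR KO 1 and 0.142 to 0.328 with any other library left out. Without wildtype 1 the difference was -0.19. Isg15 itself, with 3 overlapping ISRE cores, had 184, 159 and 150.3 reads in wildtype and 189, 164 and 164 in SFR KO libraries. Its difference was 0.07, with a 95% interval of -0.26 to 0.40.

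Usp18, which removes Isg15 from proteins and dampens the type I receptor, gave 140.3, 223 and 112 normalized reads across the wildtype libraries and 182, 220.1 and 281 across the SFR KO libraries. Wildtype 2 reached into the SFR KO range, and the difference was 0.56 ± 0.25 (limma adjusted p = 0.322). Parp14, an ADP-ribosyl transferase, had 4425, 4830.1 and 4155 in wildtype and 3798, 4301 and 4508 in SFR KO libraries (-0.09 ± 0.08, limma adjusted p = 0.618). Dtx3l and Parp9, partners in 1 complex, differed by 0.03 ± 0.06 and 0.01 ± 0.06. These 2 genes overlap on opposite strands, and whether the counting used strand is unknown here, so reads in the overlap cannot be assigned.

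The interferon-inducible GTPases, a class linked to defence against pathogens in vacuoles, lay highest as a group. All 6 had a difference above 0, with a median of 0.33, and they stayed above 0 in every alternative scaling, filter and model run and with each library left out. Their summed level was 2503 to 2593 normalized reads in wildtype and 2767 to 3304 in SFR KO libraries. Summed values thus did not overlap, with SFR KO 1 closest to wildtype. The T cell marker sums given above, 366 to 775 and 734 to 897, also leaned to the SFR KO side. The germinal centre B cell marker, plasma cell marker and mitochondrial sums were higher there without overlap. The dendritic cell marker sums leaned to the wildtype side. The part of each in these values was not tested. With 1 library left out the group median ran from 0.28, without SFR KO 2, to 0.41, without SFR KO 1.

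Igtp (chr11:58199556-58207591), an immunity-related GTPase also known as Irgm3, reached 599, 679 and 682 normalized reads in the 3 wildtype libraries and 769.6, 896 and 972 in the 3 SFR KO libraries. Every SFR KO library was above every wildtype library. Means were 653 ± 46.8 and 879 ± 102 (SD, n = 3 each), a ratio of 1.35 and a log2 difference of 0.42 ± 0.10. The adjusted p was 0.103 by limma, 0.0970 by edgeR and 0.00975 by DESeq2. Without SFR KO 1 the difference was 0.52 (limma adjusted p = 0.0193), and with any other library left out the limma adjusted p was 0.197 to 0.318. The annotation gives Irgm2 a stretch of the same strand, so the 2 genes may share reads and are not separate observations. Irgm2 was also higher without overlap, at 0.46 ± 0.12.

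Iigp1, a vacuole-targeting GTPase, showed the largest difference of the set and one of the least certain. It gave 11.1, 48.2 and 39.6 normalized reads across the wildtype libraries and 43.4, 99.6 and 109 across the SFR KO libraries. Wildtype 1 was far below the rest, and SFR KO 1 lay inside the wildtype range. The difference was 1.44 ± 0.54 (limma adjusted p = 0.236), and it fell to 0.82 without wildtype 1. Among the guanylate-binding proteins, Gbp3 had 819, 794 and 779 in wildtype and 822, 866 and 956 in SFR KO libraries, without overlap but with a gap of only a few reads (0.14 ± 0.08, limma adjusted p = 0.417). Gbp2 and Gbp7 overlapped, at 0.24 ± 0.12 and 0.48 ± 0.24, as did the autophagy-linked GTPase Irgm1 at 0.22 ± 0.12. Gbp genes are close copies, and reads may be split between them.

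The further interferon-inducible genes held the member with the smallest p of the set. Ifi27 (chr12:103434211-103440239), a mitochondrial and nuclear envelope protein, reached 911, 1029 and 892 normalized reads in the 3 wildtype libraries and 1238, 1249 and 1222 in the 3 SFR KO libraries. The SFR KO libraries lay close together and well above all wildtype libraries. Means were 944 ± 74.1 and 1236 ± 13.5 (SD, n = 3 each), a ratio of 1.31 and a log2 difference of 0.39 ± 0.07. The adjusted p was 0.0543 by limma, 0.0554 by edgeR and 0.00152 by DESeq2. It was 0.0335 by limma without SFR KO 1, where the difference stayed at 0.39, and 0.0743 to 0.216 with any other library left out. With a GC correction it was 0.0918 by limma. Genes of the mitochondrial genome were also higher in SFR KO libraries, as summed above, and their part in this difference was not tested.

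Xaf1, which promotes cell death, gave 159.8, 170.3 and 148 normalized reads across the wildtype libraries and 208, 229.9 and 189 across the SFR KO libraries. The groups did not overlap, and the difference was 0.39 ± 0.14 (limma adjusted p = 0.220). Rtp4, a receptor-transporting chaperone, was on the other side, with 78.0, 86.2 and 46.7 reads in wildtype and 60.1, 41.6 and 52.4 in SFR KO libraries. Wildtype 3 fell among the SFR KO libraries, and the difference was -0.41 ± 0.28 (limma adjusted p = 0.515), from -0.25 without wildtype 2 to -0.68 without wildtype 3. Sp100 had 9314, 10389.5 and 9085.5 in wildtype and 9820.0, 9653 and 9191 in SFR KO libraries, at -0.00 ± 0.06. Ifi35 differed by 0.09 ± 0.07.

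Places within the wildtype group were uneven between libraries. Of the 37 tested genes, wildtype 2 was the highest of its group for 20 and wildtype 3 the lowest for 26. In the SFR KO group the highest place was shared, with 13 genes in SFR KO 1, 13 in SFR KO 2 and 11 in SFR KO 3. Places were not counted over all tested genes, so these numbers cannot tell the members from the whole table. For the Ifit family the mean log2 over the wildtype mean was 0.34 in wildtype 1 and -0.55 in wildtype 3, and for the Oas family it was 0.37 in wildtype 2 and -0.42 in wildtype 3. In the SFR KO libraries these means were 0.06 to 0.32 for Ifit and -0.23 to 0.18 for Oas genes. Both family means thus had a wider range among wildtype than among SFR KO libraries, a difference in spread that was not tested. Each gene counted equally in these means. Ifit2, with the most reads of its family, did not fall in wildtype 3 (205, 204 and 214 in wildtype libraries). The low Ifit mean of wildtype 3 came from Ifit1, Ifit3 and Ifit3b, at 15.2, 24.4 and 6.09 reads there. For the GTPases the wildtype means were -0.18 to 0.15 and the SFR KO means 0.25 to 0.63. Iigp1, the GTPase with the fewest reads, counted as much here as each of the others. It had 11.1 reads in wildtype 1 and the largest difference, 1.44, so it widened the gap between these means.

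**Figure D3:**
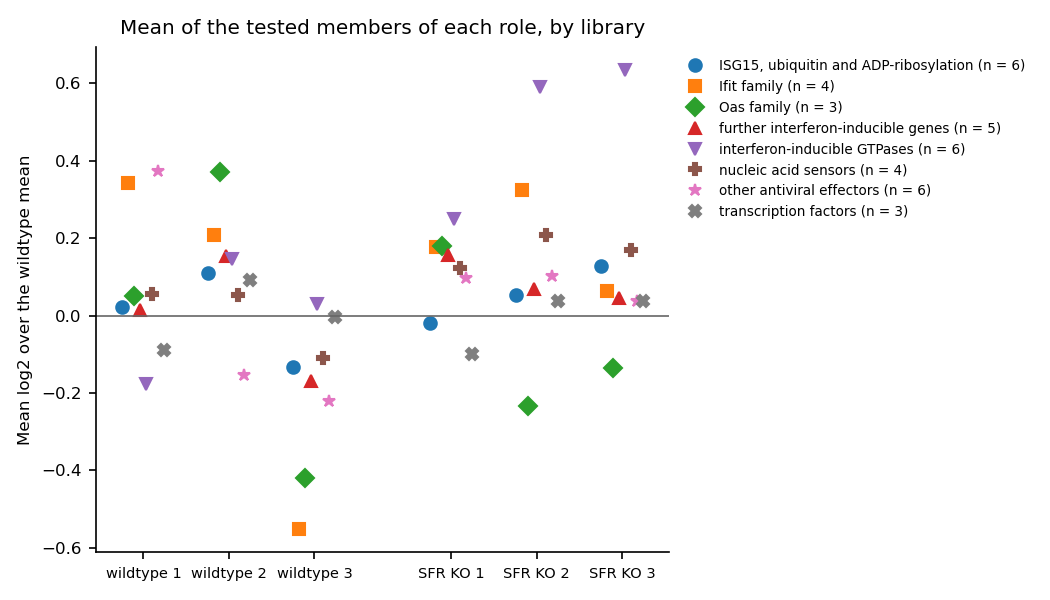
Mean over the tested genes of each role (colour and marker) of log2 over the wildtype mean (y axis), in each of the 6 libraries (x axis). The interferon-inducible GTPases stand at 0.25 to 0.63 in SFR KO libraries, where Iigp1, the lowest of them in reads, differs most. The Ifit and Oas means fall to -0.55 and -0.42 in wildtype 3, though Ifit2 does not fall there.

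The rest of the interferon pathway was read from lists of 139 genes, of which 119 had a read and 111 were tested. None was called by limma or by edgeR, at the same backgrounds as above. At an unadjusted limma p under 0.05, 15 were higher and 12 lower, against 7.04% and 9.07% of all tested genes. DESeq2 called 8 as higher and 6 as lower of 96 with a value, against 1.85% and 2.99%. Their median difference was 0.02. Without SFR KO 1, limma called 11 as higher and 3 as lower, against 1.62% and 2.08% of all genes in that fit, and leaving out any other library gave 0 calls on these lists.

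Interferon transcripts were almost absent. Of 21 ligand genes, 19 had no read in any library. Ifnk, the ligand gene with the most reads, gave 0.929, 10.3 and 5.08 normalized reads across the wildtype libraries and 8.87, 0 and 6.56 across the SFR KO libraries. Ifng had 6.5 in wildtype 1, 1.09 in SFR KO 2 and 0 in the other 4 libraries. All 6 receptor chains were measured, and 5 lay below 0, with a median of -0.19. Ifngr2, the signalling chain of the type II receptor, reached 994, 919 and 885 normalized reads in the 3 wildtype libraries and 851, 666 and 691 in the 3 SFR KO libraries. The groups did not overlap, at -0.35 ± 0.10 (limma adjusted p = 0.154, 0.0203 without SFR KO 1, and 0.255 to 0.406 with any other library left out). Ifngr1, its ligand-binding partner, differed by -0.13 ± 0.10.

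Among kinases and transcription factors of the pathway, Irf5, a factor downstream of Toll-like receptors, had 6460, 6877 and 6653 in wildtype and 5812, 5458 and 5337.5 in SFR KO libraries. It was lower without overlap, at -0.27 ± 0.05, with an adjusted p of 0.0582 by limma and 0.000954 by DESeq2. Its limma adjusted p was 0.146 with a GC correction, 0.0140 without SFR KO 1 and 0.138 to 0.225 with any other library left out. Irf8, the most abundant factor on this list, overlapped between groups at -0.03 ± 0.08.

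Among 54 tested interferon-inducible genes outside the set, 37 lay above 0, with a median of 0.09. Phf11b reached 993, 908 and 902 normalized reads in the 3 wildtype libraries and 1149, 1359 and 1399 in the 3 SFR KO libraries, with no overlap. The difference was 0.47 ± 0.09, with an adjusted p of 0.0543 by limma and 0.000289 by DESeq2. By limma it was 0.1085 with a GC correction, 0.00596 without SFR KO 1 and 0.127 to 0.216 with any other library left out. Tgtp2, a GTPase of the same vacuole-targeting kind as Iigp1, had 74.3, 70.8 and 106 in wildtype and 119, 279 and 232 in SFR KO libraries. Its groups did not overlap either, at 1.26 ± 0.30 (limma adjusted p = 0.105, DESeq2 adjusted p = 0.000825). Tgtp2 and Tgtp1 are near-identical, so reads may be split between them. Ifi30, a lysosomal enzyme of antigen processing, had 7573, 8032 and 8323 in wildtype and 6949.7, 5991 and 6111 in SFR KO libraries. It was lower without overlap, at -0.33 ± 0.07 (limma adjusted p = 0.0627, DESeq2 adjusted p = 0.000495). Its limma adjusted p was 0.122 with a GC correction, 0.00616 without SFR KO 1 and 0.138 to 0.230 with any other library left out.

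Of 12 genes of class I antigen processing, 10 lay above 0, with a median of 0.10. B2m, the shared light chain of class I molecules, gave 29289, 28661 and 29433 normalized reads across the wildtype libraries and 34433, 35182 and 34401 across the SFR KO libraries. The 3 SFR KO libraries lay close together above all wildtype libraries, at 0.25 ± 0.05. The adjusted p was 0.0522 by limma and 6.02e-06 by DESeq2. By limma it was 0.183 with a GC correction, where the difference was 0.17. It was 0.0177 by limma without SFR KO 1 and 0.126 to 0.225 with any other library left out. Psmb9, an immunoproteasome subunit, had 6374, 6548 and 7770.2 in wildtype and 7991, 9229 and 8667 in SFR KO libraries. It was also higher without overlap, at 0.33 ± 0.08 (limma adjusted p = 0.115, DESeq2 adjusted p = 0.00374). H2-D1, a class I heavy chain, overlapped between groups at 0.03 ± 0.06.

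**Figure D4:**
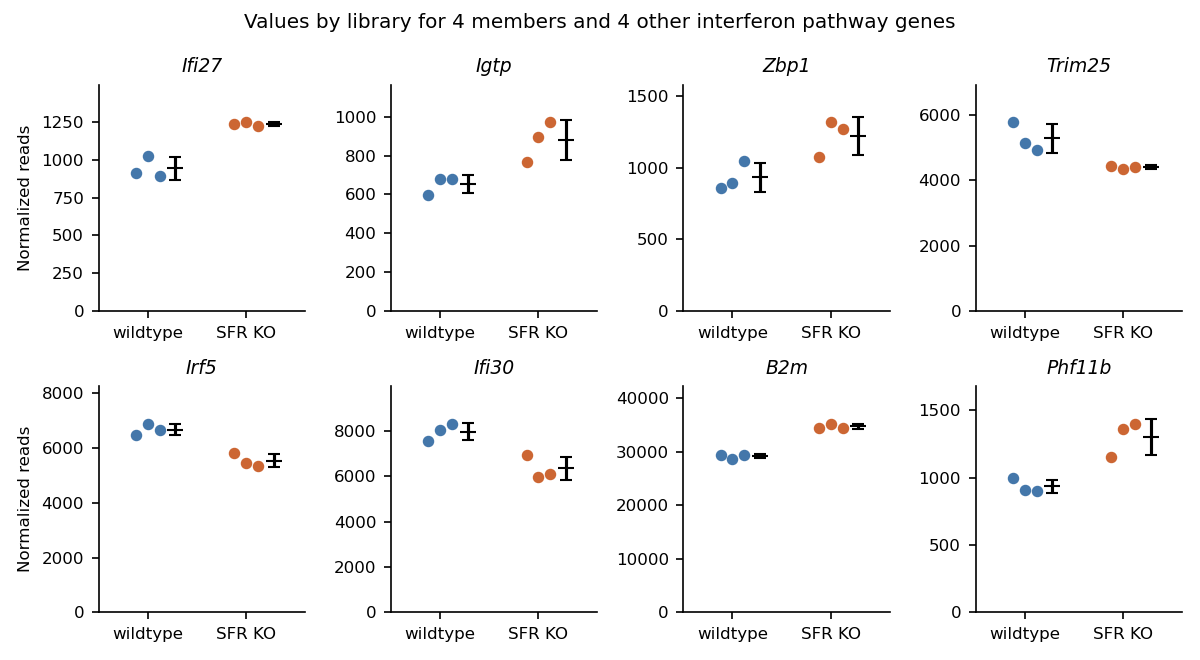
Normalized reads (y axis, from 0) in each wildtype (blue) and SFR KO (orange) library for Ifi27, Igtp, Zbp1 and Trim25 and for Irf5, Ifi30, B2m and Phf11b, genes outside the set; black bars are the mean ± SD of 3 libraries. The groups do not overlap in any panel, and SFR KO libraries are lower for Trim25, Irf5 and Ifi30 and higher for the other 5 genes.

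The Ifi200 family senses DNA and lies on chromosome 1 from position 173350879 to 174031810 (GRCm38), about 1.40 Mb past the segment from Cd244a to Slamf6. The table held 13 of its genes and 11 were tested. None was called by limma or edgeR, nor by DESeq2 among the 7 it gave an adjusted p. None had an unadjusted limma p under 0.05, where 7.04% of all tested genes were higher and 9.07% lower. The groups overlapped for all 11, where 9.78% of all tested genes were higher without overlap and 11.9% lower. The median difference was -0.01. Ifi209, the family member with the most reads, had 6675, 7314 and 5974 in wildtype and 7266, 7412 and 7341 in SFR KO libraries (0.15 ± 0.07, limma adjusted p = 0.349). With the GC correction its difference was 0.03, and without wildtype 3 it was 0.07. Ifi208 differed by -0.40 ± 0.18 (limma adjusted p = 0.324), and by -0.25 without wildtype 2. These near neighbours are close copies, and reads may be split between them.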

How the data were processed

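RNA-seq of 6 libraries, 3 wildtype and 3 SFR KO, was used. The authors deposited read counts per gene normalized to library size (a signal), with a log2 fold change and its standard error, a test statistic (a score) and p-values for each gene. STAR 2.5, featureCounts 1.5, DESeq2 1.14.1 and build GRCm38 were used, per the submitters' processing notes. No source used here gives the strand setting, the annotation release or any filter. Genotype labels set the groups, and accession order set replicate numbers. Dividing by the smallest step gave whole reads for 100% of values within 1e-06. The closest pair of libraries within a group had a chi-square of 6.11 per gene, far over sampling noise, so none was counted as a repeat.

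The test was limma 3.58.1 (lmFit, eBayes with a trend, two-sided, R 4.3.3) on log2(normalized read count + 1), with genotype as the factor. It covered the 13562 genes with a mean of at least 10, and calls had a Benjamini-Hochberg adjusted p under 0.05 over all of them. This scale understates changes of low genes. Alternatives were the recovered reads in edgeR 4.0.16 (quasi-likelihood test) or DESeq2 1.42.0, pseudocounts of 0.5 and 5, minimum means of 1 and 50, TMM and total-read scaling, sample weights, a GC correction (natural spline, 4 degrees of freedom) and each library left out. The fit was tested on simulated data.

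The members and gene lists were chosen with earlier results of these data known. Values per library are given for members called by any tool, the 5 with the smallest p in each direction, the highest mean of each role, and members spanning over 2-fold within a group at a mean of at least 50. Other lists give their highest mean and 2 smallest p, except 1 gene that is not reported here. Values of Tgtp2, Irgm2, Ifng, Oas2, Usp18, Ifih1, Isg15, Ifit1 and Mx1, and the Igtp, Isg15 and Ifit3 promoters, were chosen after values were seen. Coordinates, exon lengths and GC content came from GENCODE M21 on GRCm38, which matched 99.67% of genes. Promoters came from RefSeq (GRCm38.p6). Zbp1, Ifi27, Mx1, Usp18, Rtp4, Parp9, Parp14, Dhx58, Oas2 and Iigp1 were not in that table.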

Additional observations from a re-analysis of the deposited data

How the results depend on the processing

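Calls among the 37 tested interferon-stimulated genes numbered 0 by limma, 1 with a minimum mean of 50 (Ifi27, adjusted p = 0.0493), 4 by DESeq2, 4 with sample weights, and 0 to 3 with 1 library left out, the 3 being without SFR KO 1. For the other pathway lists they numbered 0, then 2 with a minimum mean of 1, 2 with a minimum mean of 50, 14 by DESeq2, 16 with sample weights, and 0 to 14 with 1 library left out, the 14 again without SFR KO 1. Over all genes in each fit limma called 63, edgeR 30, DESeq2 491, sample weights 630, the GC correction 18 and the fit without SFR KO 1 501. With a minimum mean of 1 limma called 97, and with a minimum mean of 50 it called 98. The causes of these differences in number were not tested.

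Some differences near 0 changed sign. Oas3 was 0.0343 with the GC correction, Sp100 was 0.0023 with TMM scaling and 0.0007 by edgeR, and Irf8 was 0.0091 with sample weights. With 1 library left out, Oas3 ran from -0.1984 to 0.1282, Sp100 from -0.0426 to 0.0542, Samhd1 from -0.0161 to 0.0693, Rsad2 from -0.449 to 0.5493, Ifit3 from -0.2935 to 0.4454, Irf8 from -0.0808 to 0.0416, Ly6e from -0.0155 to 0.0763 and H2-D1 from -0.016 to 0.0832. The causes were not tested. The median of all tested genes stayed within 0.0104 of 0 on the log2 scale under every setting run. With 3 libraries a group, the 95% interval of a gene with a wide spread between libraries, such as Rsad2 (-1.30 to 1.11), reaches past a 2-fold change either way. No paired analysis was possible because the labels give no replicate numbers shared between groups.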

Other observations

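Genes upstream of interferon production were measured too. Of 12 sensors and adaptors that lead to interferon genes, 9 had a difference below 0, with a median of -0.08, and none was called by limma, edgeR or DESeq2. At an unadjusted limma p under 0.05, 2 were lower, as were 9.07% of all tested genes. DESeq2 gave an adjusted p to 11 of the 12. Mavs, the mitochondrial adaptor of the RNA sensors, reached 1999, 1601 and 1711 normalized reads in the 3 wildtype libraries and 1371, 1436 and 1601 in the 3 SFR KO libraries, at -0.27 ± 0.09 (limma adjusted p = 0.213). Irak4, a kinase of Toll-like receptor signalling, had 1107, 1115 and 1054 in wildtype and 1004, 897 and 903 in SFR KO libraries, at -0.23 ± 0.07 (limma adjusted p = 0.177). In both genes all SFR KO libraries were below all wildtype libraries. Unc93b1, which carries Toll-like receptors to endosomes and had the most reads of this list, overlapped between groups at 0.08 ± 0.06.

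Of 7 negative regulators of cytokine signalling, 5 had a difference below 0 and none was called by limma, edgeR or DESeq2, with 2 lower at an unadjusted limma p under 0.05, as were 9.07% of all tested genes. Socs3, a feedback inhibitor of cytokine receptors, gave 258, 109.8 and 299.6 normalized reads across the wildtype libraries and 62.1, 107 and 158 across the SFR KO libraries. Wildtype 2 lay among the SFR KO libraries, and the difference was -0.996 ± 0.41 (limma adjusted p = 0.275), and -0.64 without SFR KO 1. Ptpn6, the phosphatase SHP-1, had 21799, 23016 and 23097 in wildtype and 21265, 20917 and 19932 in SFR KO libraries. It was lower without overlap, at -0.13 ± 0.05 (limma adjusted p = 0.249).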
